A study of Mus musculus with 12 samples.

Results

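The Siglec lectins are cell surface receptors of the immunoglobulin family that bind sialic acid, the sugar that caps many glycans of mammalian cells. The mouse genes followed here were taken by symbol: Siglech, Cd33, Siglec5, Siglece and Siglecg of the fast-evolving CD33-related branch, and Siglec1, Cd22 and Mag of the conserved branch. They were 8 of the 18430 genes named by a single symbol in the main table, and each had 1 row there and 1 row in a second table. Siglec1, a single gene on chromosome 2, stands apart, while the other 7 lie on chromosome 7.

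Expression was measured in microglia from the brainstem (BSM) and in monocytes from the bone marrow (BMDM in the labels) of C57BL/6 mice aged 6 weeks, for which the labels name no treatment and no altered gene. Cells of perfused mice were enriched on Percoll and flow sorted, BSM as CD11b+ CD45 low, CD115 low and Ly6G- and BMDM as CD11b+ CD45 high, CD115+ and Ly6G-, and RNA was amplified before hybridisation to a mouse exon array. There were 3 arrays of each cell type, each from pooled mice, and every array was summarised by 2 programs, Aroma and Expression Console, so that the 12 deposited samples are 6 arrays. The labels give replicate 1 of both cell types as female and replicates 2 and 3 as male, as does the RNA quality list of the study for the first pair, whereas its main text describes male mice. The Aroma median per array was 5.42 to 5.50 in BMDM and 5.61 to 5.70 in BSM on the log2 scale. Array profiles correlated at 0.991 to 0.992 within BMDM, 0.983 to 0.989 within BSM and 0.855 to 0.870 between the cell types. Of the microglial markers 7 of 7 measured were higher in BSM, beside 28.0% of all rows. Olfml3, P2ry12 and Gpr34 differed by 6.85, 6.43 and 6.42 on the log2 scale. The summed intensity of these markers ran from 825 to 1000 in BMDM and from 19400 to 20200 in BSM. Of the monocyte markers 6 of 6 measured were lower in BSM, beside 21.6% of all rows. They were led by Fn1 (-7.67), S100a4 (-6.77) and F13a1 (-6.75), with sums of 16900 to 17900 in BMDM and 155 to 194 in BSM.

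Most Siglecs carry inhibitory motifs in the cytoplasmic tail, which recruit the phosphatases SHP1 and SHP2 and so raise the threshold for activation. Others have no such motif and sit next to the adaptor DAP12, which signals through the kinase Syk. Because neurons and glia are rich in sialic acid, Siglecs are studied in microglia as receptors by which a healthy cell surface restrains phagocytosis, and the human CD33 gene lies at a locus associated with Alzheimer's disease.

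Promoters of 7 of the 8 genes were in the RefSeq promoter table (GRCm38.p6), Siglec1 being the exception. The 3 shown are those of the genes with the largest differences in the comparison that follows, and each run gives the 250 bases before the annotated start, 5′ to 3′ on the strand of the gene. Siglecf, the current name of the Siglec5 row, is at chr7:43351091-43351340 (plus strand), Cd33 at chr7:43533172-43533421 (minus strand) and Siglech at chr7:55767934-55768183 (plus strand). Capitals in Siglecf and Cd33 mark runs of at least 12 bases that the pair share in a window from 250 bases before to 50 after the start, and capitals in Siglech mark the ETS core GGAAGT, here on the opposite strand.
Siglecf: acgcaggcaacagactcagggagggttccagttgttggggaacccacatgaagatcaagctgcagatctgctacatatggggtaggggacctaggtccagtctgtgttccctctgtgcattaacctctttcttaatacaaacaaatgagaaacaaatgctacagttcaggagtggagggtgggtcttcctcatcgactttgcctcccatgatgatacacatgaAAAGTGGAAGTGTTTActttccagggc
Cd33: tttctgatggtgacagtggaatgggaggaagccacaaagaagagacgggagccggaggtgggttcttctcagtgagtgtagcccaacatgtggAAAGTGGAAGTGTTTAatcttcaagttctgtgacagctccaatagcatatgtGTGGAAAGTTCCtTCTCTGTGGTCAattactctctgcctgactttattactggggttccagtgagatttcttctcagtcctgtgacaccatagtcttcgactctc
Siglech: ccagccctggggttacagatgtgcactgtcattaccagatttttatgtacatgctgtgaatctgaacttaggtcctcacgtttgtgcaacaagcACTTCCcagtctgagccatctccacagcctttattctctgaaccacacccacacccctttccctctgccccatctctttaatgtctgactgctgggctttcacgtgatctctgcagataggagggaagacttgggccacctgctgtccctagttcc

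The Siglecf and Cd33 promoters shared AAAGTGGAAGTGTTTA, a run of 16 bases that began 27 bases before the start of Siglecf and 157 bases before that of Cd33. It occurred in 2 of the 32851 promoters of the table, which are these. A further 2 runs of 12 bases were shared in the same order. GTGGAAAGTTCC lay 51 bases further on in Siglecf and 52 in Cd33, and TCTCTGTGGTCA lay 64 and 65 bases further on. In Siglecf both lie after the start, 24 and 37 bases on, and so outside the bases shown. GTGGAAAGTTCC was also in 2 of the 32851 promoters and TCTCTGTGGTCA in 9 (0.0274%). No other pair among the 7 genes shared a run of that length. The ETS core GGAAGT, searched on both strands, was present in the 250 bases of Cd33, Siglecf and Siglech, and in Siglecf and Cd33 it lies inside the longest shared run. It was present in 19.7% of all promoters. The RUNX core TGTGGT was present in Cd33, Mag and Siglech and in 14% of all promoters, and the E-box CACGTG in Siglech and in 6.02%. TTGCGCAA, a C/EBP site, and GAAANNGAAA, the interferon response element, were in none of the 7 and in 0.164% and 2.98% of all promoters. These are matches of letters and not measured binding.

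All 8 Siglec genes differed between the cell types in the Aroma table, with 6 higher and 2 lower in BSM. Siglech and Cd33 were higher by 135-fold and 9.95-fold, and Siglec5, Siglece and Mag by 2.51-fold to 2.98-fold. Cd22 differed by 1.34-fold, in a call that a second summary of the same arrays did not repeat. Siglec1 and Siglecg were lower, by 1.82-fold and 2-fold. Each difference was tested with limma on log2 intensities, with p-values adjusted over all 21837 rows (Benjamini-Hochberg, two-sided, 3 arrays against 3). Calls were frequent on these arrays. At an adjusted p under 0.05, 28.0% of all rows were higher in BSM and 21.6% were lower, against 75% and 25% of the Siglec genes, and in 60.8% of rows the cell types did not overlap, against 8 of 8 Siglec genes. The share of Siglec genes that were lower is thus close to that of all rows. Median centring of the arrays turned the balance of all rows from 6120 higher and 4718 lower to 3253 higher and 5792 lower, and left 5 Siglec genes higher and 2 lower. The median difference was 1.37 over the 8 genes and 0.176 over all rows, so a difference is shifted upward by the latter where the typical gene is taken as equal. Differences are in log2 units, BSM minus BMDM, with SE and 95% interval. As these are sorted populations measured in bulk, fewer cells that carry a transcript and less RNA per cell cannot be told apart.

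**Figure D1:**
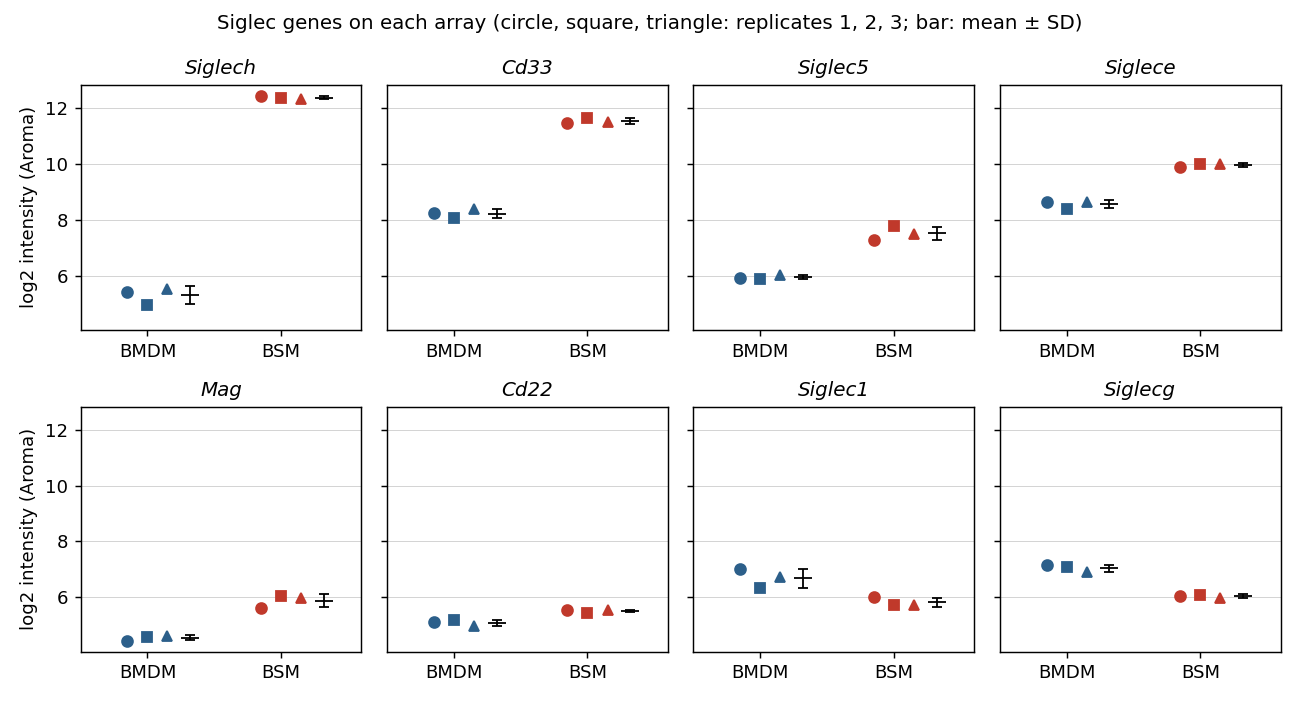
Aroma level (log2 intensity, vertical axis) of each of the 8 Siglec genes in the 3 BMDM and 3 BSM arrays, 1 point per array. Siglech moves from 4.94 to 5.53 in BMDM to 12.33 to 12.43 in BSM, while Cd22 groups are separated by 0.27.

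Siglech has a short tail without inhibitory motifs, pairs with DAP12, and is used in the mouse as a marker of microglia and of plasmacytoid dendritic cells. Its log2 level was 5.42, 4.94 and 5.53 in BMDM replicates 1 to 3, and 12.43, 12.37 and 12.33 in the BSM replicates. All BMDM arrays were near or below the array medians and all BSM arrays far above them, with a gap of 6.8 between the groups. The difference was 7.08 (SE 0.16, 6.72 to 7.44, adjusted p = 1.7e-08), the 16th largest in size of 21837 rows. In linear intensity the means were 39.9 and 5320, and with a pseudocount of 16 the difference was 6.59. With no detection call used, the level in BMDM was not shown to exceed background. Of 10 plasmacytoid dendritic cell markers, 3 were higher and 5 lower in BSM, beside 28.0% and 21.6% of all rows. Cox6a2 stood at 1.6, Il3ra at -1.45 and Cd209d at -1.42. The summed intensity of the 10 markers was 1600 to 1970 in BMDM and 1530 to 1640 in BSM. Bst2 was the largest part of these sums, with a mean intensity of 858 in BMDM and 516 in BSM. The part of such cells in the level of Siglech was not tested.

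Cd33, the gene that names the branch, is a myeloid receptor, and mouse CD33 lacks the classical inhibitory motif of human CD33. It stood at 8.23, 8.05 and 8.38 in BMDM and at 11.45, 11.65 and 11.51 in BSM. The lowest BSM array exceeded the highest BMDM array by 3.07. The difference was 3.31 (SE 0.12, 3.04 to 3.59, adjusted p = 1.4e-07), or 8.22 against 11.54 in mean log2 level.

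Siglec5 of the Aroma table is Siglec-F, an inhibitory receptor of eosinophils and alveolar macrophages in the mouse. RefSeq lists the symbol as an older name of both Siglecf and Siglece, and Siglece has a row of its own. Across the 6 arrays the Siglec5 row differed from the row named Siglecf in the Expression Console table by a root mean square of 0.264, and from the Siglece row by 2.2. Its level was 5.90, 5.87 and 6.01 in BMDM and 7.27, 7.76 and 7.49 in BSM. All BSM arrays were higher than all BMDM arrays, by at least 1.26. The difference was 1.58 (SE 0.14, 1.26 to 1.89, adjusted p = 2.7e-05). Of 6 eosinophil markers measured, 1 was higher (Ccr3, 1.5) and 2 were lower in BSM (Prg2, -3.43, and Ear6, -1.40), beside 28.0% and 21.6% of all rows. Their sums were 243 to 779 in BMDM and 128 to 148 in BSM. Prg2 was the largest part of the BMDM sums, with a mean intensity of 312 in BMDM and 24.2 in BSM. With limma on the Expression Console levels 1 was lower and 0 were higher. Under the methods' t-test 1 was higher and 0 were lower. The part of eosinophils in the level of Siglec5 was not tested.

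Siglece encodes an inhibitory receptor of neutrophils, monocytes and macrophages in the mouse. Its level was 8.63, 8.38 and 8.65 in BMDM and 9.88, 9.99 and 10.01 in BSM. The groups were separated by 1.24, more than the range within either. The difference was 1.41 (SE 0.11, 1.16 to 1.67, adjusted p = 1.5e-05). All 8 neutrophil markers measured were lower in BSM, beside 21.6% of all rows. They were led by S100a8 (-7.18), Mpo (-7.10) and Mmp8 (-6.34), with sums of 9020 to 9950 in BMDM and 167 to 246 in BSM. S100a8 and Mpo were the largest parts of the BMDM sums, with mean intensities of 3990 and 3310 there. Both cell types were sorted as Ly6G-, and Ly6g, of the same list, had a mean level of 4.84 in BMDM and 3.53 in BSM. The BMDM mean of Ly6g lay below the array medians (5.42 to 5.50), though BMDM replicate 3 stood at 5.79. How particular the listed markers are to neutrophils among marrow cells was not tested. The part of neutrophils in the level of Siglece was not tested.

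Siglecg encodes the inhibitory Siglec-G of B cells, and was the gene of the CD33-related branch that was lower in BSM. It stood at 7.14, 7.08 and 6.90 in BMDM and at 6.06, 6.09 and 5.96 in BSM. Every BSM array was below every BMDM array, by at least 0.81. The difference was -1 (SE 0.11, -1.25 to -0.76, adjusted p = 9.5e-05). Its neighbour on the chromosome, Siglecf, with no coding gene between them in RefSeq, was higher in BSM, as were Cd33 and Siglece, which lie 9 and a further 4 coding genes away. Siglech lies 190 coding genes beyond Siglece.

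**Figure D2:**
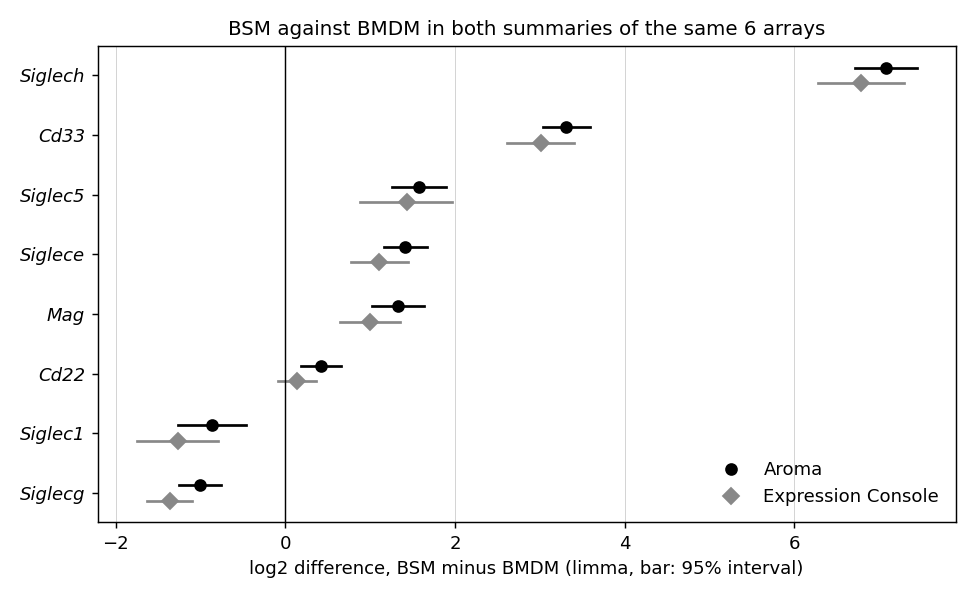
Difference in log2 intensity, BSM minus BMDM, for the 8 Siglec genes in the Aroma and Expression Console tables, as points with 95% intervals from limma. The 8 genes keep their direction in both tables, and the Expression Console interval of Cd22 (-0.08 to 0.36) includes 0.

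Siglec1, or sialoadhesin, is a macrophage adhesion receptor with a long extracellular part and no inhibitory motif. Its level was 7.01, 6.34 and 6.72 in BMDM and 6.02, 5.73 and 5.73 in BSM. The BMDM arrays varied more than the BSM arrays and lay above them by at least 0.32. The difference was -0.86 (SE 0.18, -1.27 to -0.46, adjusted p = 0.0041). With the t-test of the study's methods on the intensities, adjusted likewise, p was 0.065. Of 9 tissue macrophage markers, 3 were higher and 2 lower in BSM, beside 28.0% and 21.6% of all rows. Adgre4 stood at -3.30, Lyve1 at 1.29 and Vcam1 at -0.63. The sums of the 9 markers were 590 to 609 in BMDM and 384 to 436 in BSM. Without Adgre4 the sums were 294 to 328 in BMDM and 359 to 403 in BSM. The lower count was 1 when any one array but BMDM replicate 3 was left out, and 1 was called in each direction in the Expression Console table. The part of such cells in the level of Siglec1 was not tested.

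Cd22 encodes an inhibitory co-receptor of the B cell receptor. Its level was 5.12, 5.18 and 4.97 in BMDM and 5.53, 5.45 and 5.55 in BSM. The gene was below the array median in all 6 arrays, and the groups were 0.27 apart. The difference was 0.42 (SE 0.10, 0.19 to 0.66, adjusted p = 0.0094), and 0.25 once the median row was taken off. Centring each array on its median gave 0.23 with adjusted p = 0.15, so this call rests on the scaling of the arrays. Of 7 B cell markers measured, 2 were higher and 4 lower in BSM, beside 28.0% and 21.6% of all rows. Cd79a stood at -2.46, Ms4a1 at -1.15 and Fcrla at -0.59, but Cd79b at 0.48 and Cr2 at 0.49. Without BMDM replicate 2 or BSM replicate 2, 1 was higher. The summed intensity of the 7 markers was 512 to 697 in BMDM and 596 to 665 in BSM. Cd79b was the largest part of these sums, with a mean intensity of 357 in BMDM and 494 in BSM. After median centring, and also in the Expression Console table, 0 of these markers were higher and 4 lower. The higher calls were thus not kept there, and the part of B cells in Cd22 or Siglecg was not tested.

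Mag, the myelin-associated glycoprotein, is made by oligodendrocytes and Schwann cells and binds gangliosides of the axon. Its level was 4.45, 4.57 and 4.63 in BMDM and 5.61, 6.05 and 5.99 in BSM. The gene was below the array median in the BMDM arrays and BSM replicate 1, and slightly above it in BSM replicates 2 and 3. The difference was 1.33 (SE 0.14, 1.02 to 1.64, adjusted p = 7.6e-05), from a mean intensity of 23.5 to 59.5. With a pseudocount of 16 it was 0.93. No detection call was used, so neither level was shown to exceed background. Of 10 oligodendrocyte markers measured, 2 were higher (Cldn11, 0.62, and Mog, 0.57), 2 were lower, among them Mbp at -0.74, and 6 did not pass. Of all rows, 28.0% were higher and 21.6% lower. The lower count was 1 without any one of the BMDM arrays, and limma on the Expression Console table called 1 lower and 0 higher, with 3 of 10 at an unadjusted p under 0.05. The sums were 493 to 566 in BMDM and 477 to 492 in BSM. The part of oligodendrocytes in the level of Mag was not tested. Cd22, the neighbour of Mag with no coding gene between them, had a smaller difference.

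**Figure D3:**
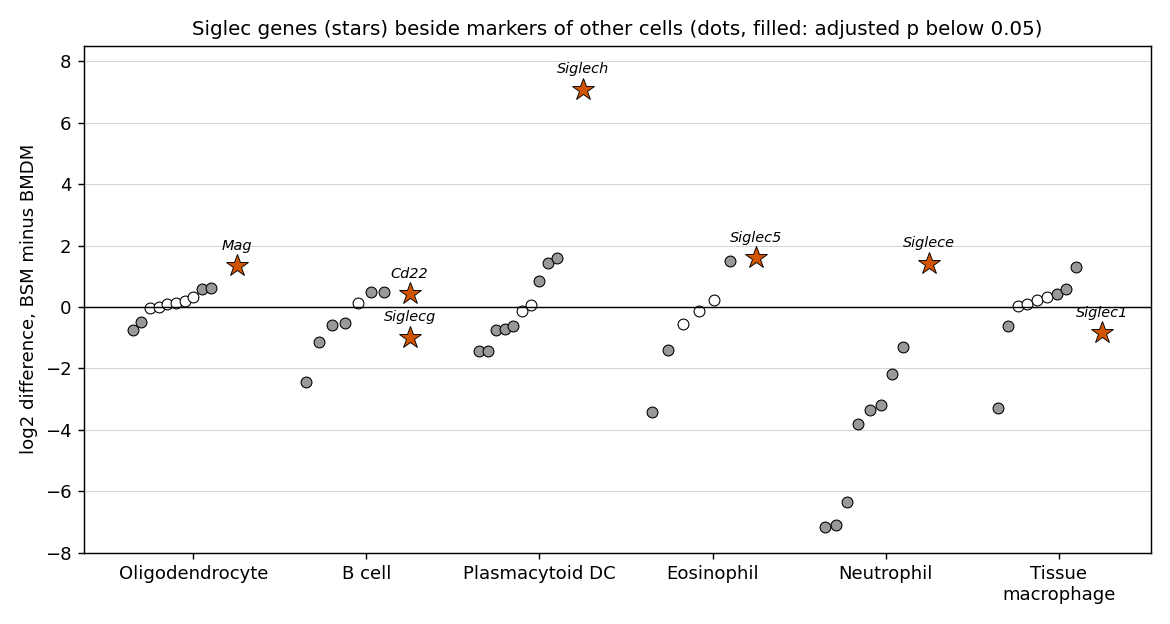
Difference in log2 intensity, BSM minus BMDM, for Siglec genes (stars) and for the measured markers of the cell type in which each is best known (dots, filled where the limma adjusted p was under 0.05). Siglech at 7.08 lies above all 10 plasmacytoid dendritic cell markers and Mag at 1.33 above all 10 oligodendrocyte markers. Siglece at 1.41 lies above the 8 neutrophil markers, all of which are lower in BSM, and Siglec5 at 1.58 close to Ccr3 at 1.5. Cd22 at 0.42 lies below Cd79b (0.48) and Cr2 (0.49). Siglecg at -1 and Siglec1 at -0.86 lie within the range of the B cell and tissue macrophage markers. The source of the transcripts was not tested.

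The sizes of the 8 differences were compared with each other through the within-array difference of each pair of genes, in 28 pairs. An exact two-sided permutation test with 3 against 3 arrays cannot give a p under 0.1. By this exact test, in 25 pairs the arrays of the cell types did not overlap (p = 0.1, adjusted p = 0.112), which the design does not let pass the threshold. The 28 pairs are built from 8 genes and are not independent, and the share over all gene pairs was not computed. Some gaps were small, as for Siglec5 relative to Mag, at most 1.45 in BMDM and at least 1.5 in BSM. The ratio of Siglech over Cd33 was higher in BSM by 3.77, over Siglece by 5.67 and over Siglecg by 8.08. In the other 3 pairs the arrays overlapped. Siglece relative to Siglec5 ran from 2.51 to 2.72 in BMDM and from 2.24 to 2.61 in BSM, a difference of -0.17 (exact permutation p = 0.3, adjusted p = 0.323). Siglece relative to Mag differed by 0.08 (exact permutation p = 0.6, adjusted p = 0.622) and Siglec1 relative to Siglecg by 0.14 (p = 0.7, adjusted p = 0.7).

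In the Expression Console table, a second summary of the same arrays, Siglech was higher in BSM by 6.78 (adjusted p = 1.3e-05), Cd33 by 3.01 (8.4e-05), the Siglecf row by 1.43 (0.0051), Siglece by 1.11 (0.002) and Mag by 1.00 (0.0039). Siglecg was lower at -1.36 (0.00037) and Siglec1 at -1.27 (0.005). Cd22 had a difference of 0.14 (SE 0.09, -0.08 to 0.36, adjusted p = 0.32), with overlapping arrays. Thus 5 genes were higher and 2 lower, beside 8.38% and 20.5% of all 23332 rows. The difference was lower than that from Aroma in all 8 genes, by -0.15 for Siglec5 to -0.41 for Siglec1, and the median row differed by -0.0473 in this table.

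The first array of each cell type carries another sex label and belongs to another set of arrays than replicates 2 and 3, and sex and set cannot be told apart. Within replicate 1 and within replicates 2 and 3, the differences were 7.01 and 7.11 for Siglech, 3.22 and 3.36 for Cd33, 1.37 and 1.68 for Siglec5, and 1.26 and 1.49 for Siglece. They were -1.07 and -0.97 for Siglecg, -1 and -0.80 for Siglec1, 0.41 and 0.43 for Cd22, and 1.16 and 1.41 for Mag. All 8 genes had the same sign in both. A limma term for the change in the cell type difference between them had an unadjusted p under 0.05 for 0 of the 8 genes, and the lowest adjusted p among them was 0.82. Over all 21837 rows 1551 had an unadjusted p under 0.05 and 0 an adjusted one, and with a single array per cell type in the first set the term has little precision.

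Transcripts of the adaptors, phosphatases and kinases that act beside Siglec tails were also compared. Of 13 measured genes of the list, 3 were higher and 9 lower, beside 28.0% and 21.6% of all rows, with a median of -0.59 beside 0.176 for all rows. After a further quantile normalisation 4 were higher and 6 lower. Fgr, a Src family kinase of myeloid cells, was the lowest at -4.08 (SE 0.11, 16.9-fold, adjusted p = 4.2e-08), from 9.47 to 9.69 in BMDM to 5.4 to 5.62 in BSM. The BSM level of Fgr was near or below the array medians (5.61 to 5.70) and was not shown to exceed background. Ptpn6 and Ptpn11, which encode SHP1 and SHP2, differed by -0.54 (adjusted p = 0.0068) and -0.94 (adjusted p = 0.00017). Syk differed by -0.59, and Hcst, the adaptor DAP10, by -0.89. Tyrobp, which encodes DAP12, had levels of 12.04 to 12.20 in BMDM and 12.07 to 12.26 in BSM, and a difference of 0.05 (-0.19 to 0.29, adjusted p = 0.71), while Siglech differed by 7.08. Inpp5d, the lipid phosphatase SHIP1, was higher by 1.45 (SE 0.09, adjusted p = 4.7e-06). Socs3, which attaches to phosphorylated tails and promotes the loss of cytokine receptors and of human CD33, was higher by 2.64 (SE 0.23, adjusted p = 3.2e-05), and Vav1 by 0.59. The BMDM level of Socs3 (5.04 to 5.36) was below the array medians and was not shown to exceed background.

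**Figure D4:**
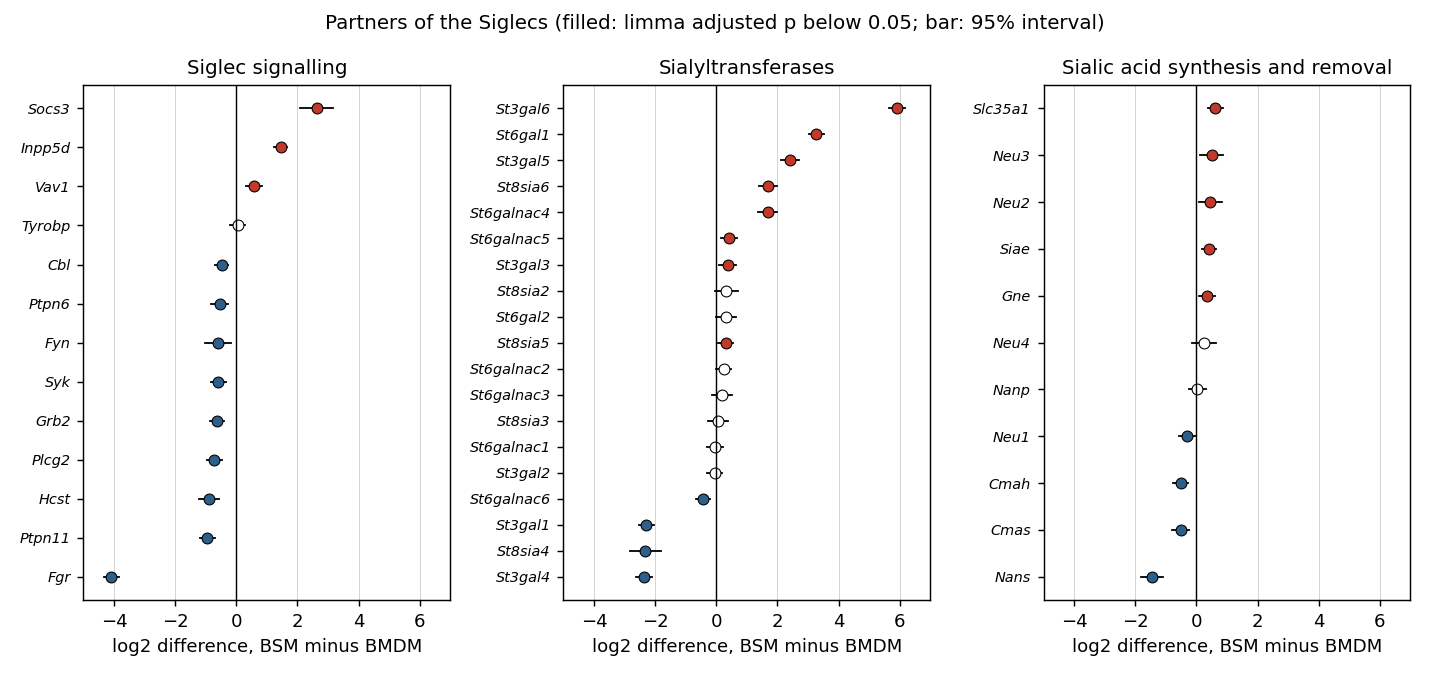
Difference in log2 intensity, BSM minus BMDM, with 95% intervals, for genes of Siglec signalling, sialyltransferases, and sialic acid synthesis and removal (filled where the limma adjusted p was under 0.05). Fgr at -4.08 and St3gal6 at 5.90 are the extremes.

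The sialyltransferases are the Golgi enzymes that place sialic acid, the Siglec ligand, on glycans. Of 19 measured, 8 were higher, 4 were lower and 7 did not pass, with a median of 0.31, and 5 were higher without BMDM replicate 1. The share lower was close to the 21.6% of all rows, and 28.0% of all rows were higher. St3gal6 was higher by 5.90 (SE 0.11, 59.8-fold, adjusted p = 9.7e-09), from 4.24, 4.30 and 4.53 in BMDM to 10.32, 10.21 and 10.24 in BSM. No array came near those of the other cell type. The BMDM level lay near the 25th percentile of the arrays (4.17 to 4.30), so with no detection call used the fold is one of intensities and the level in BMDM was not shown to exceed background. St6gal1, which makes the linkage that CD22 prefers, was higher by 3.27 (9.65-fold), and St3gal5, the ganglioside synthase, by 2.42 (5.35-fold). The BMDM level of St6gal1 (5.38 to 5.43) was below the array medians and was likewise not shown to exceed background. St3gal4, St8sia4, a polysialic acid synthase, and St3gal1 were lower, at -2.36, -2.32 and -2.29. Of 6 genes of sialic acid synthesis and transport, 2 were higher and 3 lower, with a median of -0.24, and 1 was higher when any one array but BSM replicate 1 was left out. Nans, the sialic acid synthase, was lower at -1.46 (SE 0.16, adjusted p = 0.00012), the CMP-sialic acid synthetase Cmas at -0.52, and Slc35a1, the Golgi transporter, was higher by 0.62. Of the sialidases and the esterase, 3 were higher (Neu3, 0.50, Neu2, 0.45, and Siae, 0.41) and 1 lower (Neu1, -0.31). These calls were marginal, since 1 was higher without BMDM replicate 1, BMDM replicate 2, BSM replicate 1 or BSM replicate 3, and 0 were lower without any one array but BSM replicate 3. With limma 0 of these 5 passed in the Expression Console table, and 1 had an unadjusted p under 0.05. Siglec15, a Siglec outside the 8, differed by -0.51 (SE 0.16, adjusted p = 0.031), with levels of 5.48 to 6.08 in BMDM and 5.22 to 5.42 in BSM. That call was lost without BMDM replicate 1, BMDM replicate 3, BSM replicate 1 or BSM replicate 3, in replicates 2 and 3 alone, and under the methods' t-test.

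Genes whose profile over the 6 arrays was most like that of a Siglec gene were found by the root mean square difference of row-centred log2 levels, among 18429 other genes. For Siglech they were Sparc (0.12), Olfml3 (0.169) and F11r (0.205), with differences of 7.13, 6.85 and 7.20. For Cd33 they were Dock9 (0.0483), Prox1 (0.0873) and 2610203C22Rik (0.0921), and for Siglec5 Prdm1 (0.063), Yae1d1 (0.0673) and Tspan3 (0.0676). For Siglece they were Acvr1 (0.0446), Plek (0.0507) and Ttyh2 (0.0548), for Mag Dnajc16 (0.0554), Lpcat1 (0.0613) and Mzt2 (0.0617), and for Siglecg Paxip1 (0.031), Exosc3 (0.0388) and Skp2 (0.0423). The likeness reflects mostly the single difference between the cell types.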

How the data were processed

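RNA of sorted cells was hybridised to mouse exon arrays. In the Aroma table the authors applied RMA background correction, quantile normalisation and a log-additive probe model, and deposited gene levels as linear intensity, which were log2 transformed here with no pseudocount or filter. In the Expression Console table the authors deposited RMA levels as log2 values. Program versions and the genome build were not given in the sources used here, and no detection call was used. The number of arrays, 3 per cell type, limits the precision. Per the study, replicates were separate sets of sorted cells, each pooled from several mice. Rows were named from the platform annotation, updated with RefSeq.

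BSM was compared with BMDM by limma 3.58.1 (lmFit and eBayes, R 4.3.3, two-sided, Benjamini-Hochberg adjustment), which was tested on simulated data. The main fit treated the arrays as unpaired, although replicate 1 of both cell types shared an array set and a sex label. Alternatives covered the second table, the scaling, a pseudocount of 16, a filter on low rows, the methods' t-test, the replicate block and each array left out. The 8 genes and all gene lists were chosen with earlier results of these data known. Named from each list were up to 3 called genes with the largest changes, and for each Siglec gene with a difference of at least 1 the 3 genes most like it. Further marker, signalling and sialic acid genes (Tyrobp, Ptpn6, Ptpn11, Syk, Hcst, Vav1, Bst2, Cd79b, Cr2, Ly6g, St3gal4, St8sia4, St3gal1 and Neu1) were named after their values were seen.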

Additional observations from a re-analysis of the deposited data

How the results depend on the processing

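All 158 values of the 8 Siglec genes under 20 settings kept their direction, and 8 crossed the threshold or moved by more than the replicate spread. Cd22 was 0.43 (adjusted p = 0.051) in replicates 2 and 3, 0.14 (0.32) in the Expression Console table and 0.14 (0.34) there without the 32 rows that are constant over the arrays, an alternative chosen after seeing the data. It was 0.20 (0.19) after a further quantile normalisation and 0.23 (0.15) after median centring. Siglec1 was -0.88 (0.065) under the methods' t-test, which left 1 Siglec gene lower. In replicate 1 alone, with no test, Siglece was 1.26 and Siglec5 1.37. The cause was not tested. With each array left out in turn, differences ran from 6.90 to 7.20 for Siglech, 3.23 to 3.39 for Cd33, 1.45 to 1.69 for Siglec5, 1.33 to 1.46 for Siglece, -1.07 to -0.95 for Siglecg, -1.04 to -0.70 for Siglec1, 0.36 to 0.47 for Cd22 and 1.25 to 1.46 for Mag, and every call was kept. The filter at the median row mean removed Cd22 and Mag. Deviations of same-numbered arrays correlated at 0.0649, 0.00214 and 0.0112, and the replicate block called 5727 rows higher and 4592 lower, against 6120 and 4718 without it, and changed no Siglec call. Rows higher and lower were 4646 and 4236 after quantile normalisation and 1955 and 4779 in the Expression Console table. In the 2 tables, 8 and 5 sialyltransferases, 2 and 0 synthesis genes and 3 and 0 of the sialidases and esterase were higher. After median centring these were 5, 1 and 0, and in replicates 2 and 3 sialyltransferases were 5 and sialidases and esterase 1.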

Other observations

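BMDM replicate 2 was the lowest array of its cell type for 5 of the 8 Siglec genes (Siglech, Siglece, Siglec1, Siglec5 and Cd33), beside 36.2% of all rows. BSM replicate 1 was the lowest of its cell type for 4 of 8 (Siglece, Siglec5, Cd33 and Mag), beside 34.8% of all rows.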
